A study of Rattus norvegicus with 18 samples.

Results

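The neurotrophins brain-derived neurotrophic factor (Bdnf) and neurotrophin 3 (Ntf3), glial cell line-derived neurotrophic factor (Gdnf) and their receptors Ngfr, Ntrk2, Ntrk3, Gfra1, Gfra2 and Ret were followed in 3 brain areas of 2 rat strains. These 9 genes, of 16226 named genes on the array, were taken by gene name, and all 17 of their probes among 41012 distinct probes were read. WHP rats were selected for high and WLP rats for low ethanol preference. All animals were male and alcohol-naive. Ages were not given in the sources used here. Each array set a pool of RNA from 3 WHP rats against a pool from 3 WLP rats, from the nucleus accumbens, the prefrontal medial cortex or the hippocampus. There were 3 pool pairs per area, 9 in all, and each pair was hybridised to 2 arrays with the dyes swapped, which made 18 arrays. The pool pair is the replicate (n = 3 per area). Pooling hides the spread between single rats. The labels call the pools biological replicates but leave unsaid if 1 set of rats gave all 3 areas.

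Neurotrophins are secreted proteins that are made as larger precursors, and they support the survival, growth and synaptic plasticity of neurons. Mature BDNF binds the receptor tyrosine kinase TrkB, encoded by Ntrk2, neurotrophin 3 binds mainly TrkC, encoded by Ntrk3, and the p75 receptor, encoded by Ngfr, binds all neurotrophins and their precursors. GDNF acts through another system: it binds the membrane-anchored co-receptor GFRα1, and the complex activates the receptor tyrosine kinase RET, while GFRα2 prefers the related ligand neurturin. BDNF in the adult forebrain is made largely by cortical and hippocampal neurons and is carried along axons to the striatum. GDNF is known in the striatum as a survival factor for dopamine neurons that project there.

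The arrays carried between 28670 and 38080 spots well above background in green and between 31207 and 38173 in red, out of 43379 that were not controls. The nucleus accumbens and prefrontal arrays shared 3 slides and a scan session. The hippocampus arrays lay on 2 other slides scanned in another session, with median green signals of 154.9 to 208.7 against 78.2 to 100.4 in the first. Hippocampus and session therefore cannot be told apart in any level comparison with that area. The WHP over WLP ratios of dye-swapped arrays were uncorrelated over all probes in nucleus accumbens pair 3 (0.027) and hippocampus pair 2 (-0.020), and correlated at 0.279 to 0.636 in the other 7 pairs. The arrays labelled prefrontal medial cortex carried striatal markers as strongly as those of the nucleus accumbens: the mean level of 15 striatal genes was 3.30 ± 0.30 and 3.41 ± 0.39 (SD, n = 3), and 0 of the 15 differed between these areas after adjustment (limma). The 11 cortical markers were at 2.44 ± 0.12 in the prefrontal arrays and 1.14 ± 0.16 in the nucleus accumbens, with 9 of 11 higher in the prefrontal arrays. Of 9 hippocampal markers, 8 were higher in the hippocampus than in the prefrontal arrays.

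**Figure D1:**
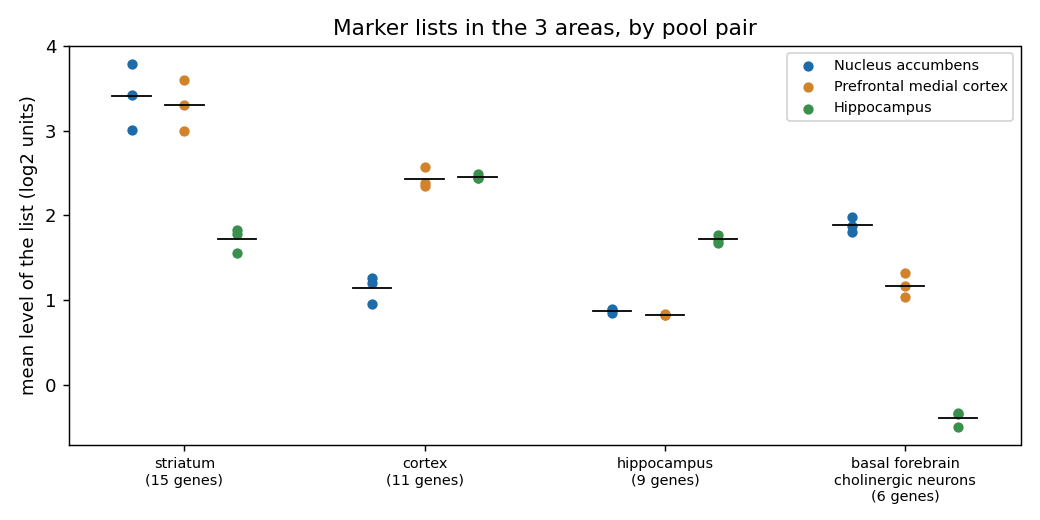
Mean level of 4 marker lists (vertical axis, log2 units above the median of all probes and channels) in the 3 pool pairs of each area, with a black bar for the mean. The 15 striatal genes lie between 3.00 and 3.79 in both the nucleus accumbens and the prefrontal arrays, and between 1.55 and 1.83 in the hippocampus.

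Each probe is a 60-base oligonucleotide, and 5 of them, of Ntrk2, Bdnf, Ntf3 and Gdnf, are shown with where they lie. Positions are those of the files, on rat build rn4. The Ntrk2 probe A_44_P161121 lies on chr17:11754284-11754343, minus strand, at transcript position 1634, and the files list it for all 3 Ntrk2 reference transcripts. The other Ntrk2 probes lie further along the gene, A_42_P631184 on chr17:11680049-11680108 in transcript variant 2 and A_42_P538400 on chr17:11495183-11495242 in transcript variant 1. The Bdnf probe A_44_P219026 lies on chr3_random:976345-976404, plus strand, and its capitals mark the first ATG followed by no in-frame stop within the probe. The Ntf3 probe A_44_P496447 lies on chr4:162436573-162436632, minus strand. The Gdnf probes A_44_P365470 (chr2:57403890-57403949) and A_44_P500961 (chr2:57423845-57423904) lie on the plus strand at transcript positions 114 and 514, and their capitals mark runs of at least 5 G or C.
Ntrk2 A_44_P161121: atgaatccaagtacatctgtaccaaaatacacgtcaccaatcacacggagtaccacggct
Bdnf A_44_P219026: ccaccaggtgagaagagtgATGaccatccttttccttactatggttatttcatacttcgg
Ntf3 A_44_P496447: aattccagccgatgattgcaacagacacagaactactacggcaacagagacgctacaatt
Gdnf A_44_P365470: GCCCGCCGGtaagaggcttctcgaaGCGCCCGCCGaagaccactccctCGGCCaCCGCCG
Gdnf A_44_P500961: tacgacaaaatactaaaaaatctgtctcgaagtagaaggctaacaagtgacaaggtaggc
The first Gdnf probe is 73.3% G and C, with 4 such runs holding 30 of its bases, and the second is 38.3% G and C with none.

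The members differed between brain areas far more than between strains. A level is the mean of both strains' channels in a pool pair after normalization across arrays, in log2 units above the median of all probes and channels, and is compared only within a probe. Each gene is described by its lead probe, the brightest one detected. Of the member probes tested with limma and Benjamini-Hochberg adjustment at 0.05, 9 of 15 differed between nucleus accumbens and prefrontal arrays, 15 of 16 between nucleus accumbens and hippocampus, and 11 of 16 between prefrontal arrays and hippocampus. Among all probes tested, 49.7%, 73.5% and 70.3% differed in these comparisons, so differing at all is no mark of these genes. The sizes and the order of the areas are what follows. In these bulk samples fewer cells of a type and less RNA per cell cannot be told apart.

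Among the ligands, Bdnf was lowest in the nucleus accumbens and higher in the prefrontal arrays and hippocampus. Its lead probe lay between 0.0040 and 0.62 in the 6 nucleus accumbens pools (median 0.44), between 1.40 and 2.21 in the prefrontal pools (median 1.86) and between 1.84 and 2.18 in the hippocampus pools (median 2.06). No nucleus accumbens pool reached the lowest pool of either other area. The nucleus accumbens minus prefrontal difference was -1.45 ± 0.09 (SE, n = 3 pairs each, adjusted p = 5.59e-06, a 2.74-fold lower level), and within the 3 shared slides it was -1.59, -1.13 and -1.65. Against the hippocampus the nucleus accumbens differed by -1.65 ± 0.09 (adjusted p = 3.20e-07). The prefrontal minus hippocampus difference of -0.20 ± 0.09 did not pass (95% interval -0.41 to 0.01, adjusted p = 0.0846). The second Bdnf probe, A_44_P437896 near the transcript's end, gave the same order with differences of -1.75 ± 0.10, -2.41 ± 0.10 and -0.66 ± 0.10, all called.

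Ntf3 rose in steps from the nucleus accumbens through the prefrontal arrays to the hippocampus. The pools ranged from -0.77 to -0.13 (median -0.46), from 0.13 to 0.55 (median 0.33) and from 1.46 to 1.72 (median 1.53), so the 3 areas did not overlap. The nucleus accumbens minus prefrontal difference was -0.80 ± 0.08 (adjusted p = 4.72e-05), with -0.91, -0.54 and -0.96 within slides. The prefrontal minus hippocampus difference was -1.21 ± 0.08 (adjusted p = 1.16e-06), and the nucleus accumbens minus hippocampus difference was -2.02 ± 0.08, or 4.04-fold.

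Gdnf showed the opposite order on its lead probe A_44_P365470, the G and C rich one. The pools ranged from 4.23 to 5.80 in the nucleus accumbens (median 5.60), from 3.98 to 4.64 in the prefrontal arrays (median 4.41) and from 2.62 to 2.88 in the hippocampus (median 2.81). The lowest nucleus accumbens pool, WHP pool 3, lay within the prefrontal range, and the hippocampus lay apart. Differences were 0.95 ± 0.16 between nucleus accumbens and prefrontal arrays (adjusted p = 0.00105; 1.14, 0.95 and 0.75 within slides), 2.48 ± 0.16 between nucleus accumbens and hippocampus and 1.53 ± 0.16 between prefrontal arrays and hippocampus. With WHP channels alone the first difference was 0.74 and did not pass (adjusted p = 0.115). The other Gdnf probe, A_44_P500961, was not well above background in any of the 12 channels of any area. The 2 probes of this gene thus disagree on whether it was detected, so the values of the bright probe are that probe's and may not be those of the Gdnf transcript.

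Ngfr had the widest difference between nucleus accumbens and hippocampus of the lead probes. It was highest in the nucleus accumbens, with pools from 2.52 to 3.03 (median 2.73), lower in the prefrontal arrays, from 0.98 to 2.23 (median 1.66), and lowest in the hippocampus, from -0.72 to -0.43 (median -0.61). No 2 areas overlapped. The nucleus accumbens exceeded the prefrontal arrays by 1.15 ± 0.10 (adjusted p = 2.23e-05; 0.96, 1.21 and 1.28 within slides) and the hippocampus by 3.34 ± 0.10 (adjusted p = 2.35e-08). In the basal forebrain Ngfr is a textbook marker of cholinergic neurons. A list of 6 cholinergic genes without Ngfr moved the same way, with all 6 higher in the nucleus accumbens than in either other area and mean levels of 1.81 to 1.98, 1.03 to 1.32 and -0.50 to -0.34 in the 3 areas. All 6 were detected in the nucleus accumbens and the prefrontal arrays and 5 in the hippocampus. Their part in the Ngfr levels was not tested.

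Ntrk2 varied less, and its probes differed from each other. The lead probe A_42_P538400 in variant 1 had pools from 6.58 to 6.84 in the nucleus accumbens, 6.43 to 7.15 in the prefrontal arrays and 5.98 to 6.51 in the hippocampus. The nucleus accumbens and the prefrontal arrays exceeded the hippocampus by 0.53 ± 0.08 and 0.60 ± 0.08 (adjusted p = 0.000159 and 7.59e-05). The probe in all 3 transcripts, A_44_P161121, did so by 0.99 ± 0.09 and 0.81 ± 0.09 (adjusted p = 4.66e-06 and 2.40e-05). The variant 2 probe A_42_P631184 differed by -0.22 ± 0.10 and 0.0013 ± 0.1016, and neither passed (95% intervals -0.44 to 0.01 and -0.23 to 0.23). The first of these was called with the scanner's processed signals (-0.50, adjusted p = 0.00394) and without prefrontal pair 1 (-0.22, 0.00945). The gene is known to give full-length TrkB and truncated forms without the kinase domain, the latter also in astrocytes, and the files do not say which form each variant encodes. The 14 astrocyte markers had mean levels of 5.04 ± 0.08, 4.93 ± 0.07 and 4.75 ± 0.05 in the 3 areas. In the main fit none of the 3 Ntrk2 probes was called between nucleus accumbens and prefrontal arrays (adjusted p = 0.111 for the shared, 0.104 for the variant 2 and 0.453 for the variant 1 probe). With the scanner's processed signals the variant 1 probe (-0.32, adjusted p = 0.0440) and the variant 2 probe (-0.47, 0.00917) were called there. Cy5 channels alone gave a call for the shared probe (0.27, adjusted p = 0.0126). Without nucleus accumbens pair 3 the shared probe's difference went from 0.18 to 0.28 and was called (adjusted p = 0.0123), and without prefrontal pair 1 that of the variant 2 probe went from -0.22 to -0.35 and was called (adjusted p = 0.00306).

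Ntrk3 varied little, with pools from 5.62 to 6.05 in the nucleus accumbens, 5.55 to 6.02 in the prefrontal arrays and 5.99 to 6.11 in the hippocampus. The hippocampus was higher by small amounts: the nucleus accumbens and prefrontal differences from it were -0.23 ± 0.06 and -0.32 ± 0.06 (adjusted p = 0.00785 and 0.00131). The nucleus accumbens and prefrontal pools reached into the hippocampus range, although their pair means lay below those of the hippocampus. The nucleus accumbens minus prefrontal difference was 0.09 ± 0.06 (95% interval -0.06 to 0.23, not called).

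The GDNF receptors did not share 1 pattern. Gfra2 was as high in the prefrontal pools (4.37 to 4.92) as in the nucleus accumbens (4.11 to 4.70), a difference of -0.14 ± 0.11 (95% interval -0.37 to 0.10, adjusted p = 0.317), and far lower in the hippocampus (1.99 to 2.64). It exceeded the hippocampus by 2.23 ± 0.11 in the nucleus accumbens and 2.37 ± 0.11 in the prefrontal arrays, 4.70-fold and 5.17-fold (adjusted p = 1.34e-07 and 1.94e-07). Gfra1 was higher in the nucleus accumbens (3.88 to 4.65) than in the prefrontal pools (2.86 to 3.86) by 0.90 ± 0.13 and than in the hippocampus (3.09 to 3.60) by 0.93 ± 0.13 (adjusted p = 0.000437 and 0.000133). Within slides the first of these was 0.57, 0.83 and 1.31, and the lowest nucleus accumbens pool lay only just above the highest prefrontal pool. The prefrontal and hippocampus levels of Gfra1 differed by 0.03 ± 0.13 (95% interval -0.27 to 0.32). Its second probe, A_44_P107308, which spans an intron, gave the same order with 0.47 ± 0.07, 0.52 ± 0.07 and 0.05 ± 0.07.

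Ret, the signalling receptor of the GDNF family, was highest in the nucleus accumbens and lowest in the prefrontal arrays. The lead probe A_44_P308662 in variant 1 lay between 2.92 and 3.75 in the nucleus accumbens pools (median 3.25), between 1.19 and 2.01 in the prefrontal pools (median 1.37) and between 2.10 and 2.94 in the hippocampus pools (median 2.35). The nucleus accumbens exceeded the prefrontal arrays by 1.74 ± 0.11 (adjusted p = 5.73e-06; 1.66, 1.58 and 1.98 within slides) and the hippocampus by 0.84 ± 0.11, and the prefrontal minus hippocampus difference was -0.90 ± 0.11. The prefrontal pools lay apart from both other areas, and the nucleus accumbens and hippocampus pools touched at their edge. The variant 2 probe A_42_P602822 gave the same order with smaller differences of 0.92 ± 0.11, 0.55 ± 0.11 and -0.37 ± 0.11. For the last of these, prefrontal minus hippocampus, the pair means overlapped, and it was called in 14 of 20 alternative settings. The other Ret probes were dim. The one in the shared part of both variants, A_44_P480153, was above background in 5 of 12 channels in the nucleus accumbens, 0 of 12 in the prefrontal arrays and 8 of 12 in the hippocampus. The one for the RET9 isoform, A_44_P153972, was above background in 12 of 12 channels in the nucleus accumbens and the hippocampus but in 5 of 12 in the prefrontal arrays, where it did not count as detected. It was higher in the hippocampus than in the nucleus accumbens (-0.20 ± 0.04, adjusted p = 0.00199), unlike the lead probe. With median scaling of the arrays in place of Aquantile, some differences no longer passed. Between nucleus accumbens and hippocampus these were the lead probes of Ret (0.51, adjusted p = 0.0725), Gfra1 (0.50, 0.123), Ntrk3 (-0.62, 0.0601) and Ntrk2 (0.14, 0.699). The RET9 probe (-0.16, 0.331), the Ret variant 2 probe (0.38, 0.117) and A_44_P480153 (0.36, 0.0987) were lost there too. Between prefrontal arrays and hippocampus they were the Ntrk2 lead probe (0.06, adjusted p = 0.856), the Ntrk2 probe in all 3 transcripts (0.40, 0.175) and the RET9 probe (-0.14, 0.362).

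**Figure D2:**
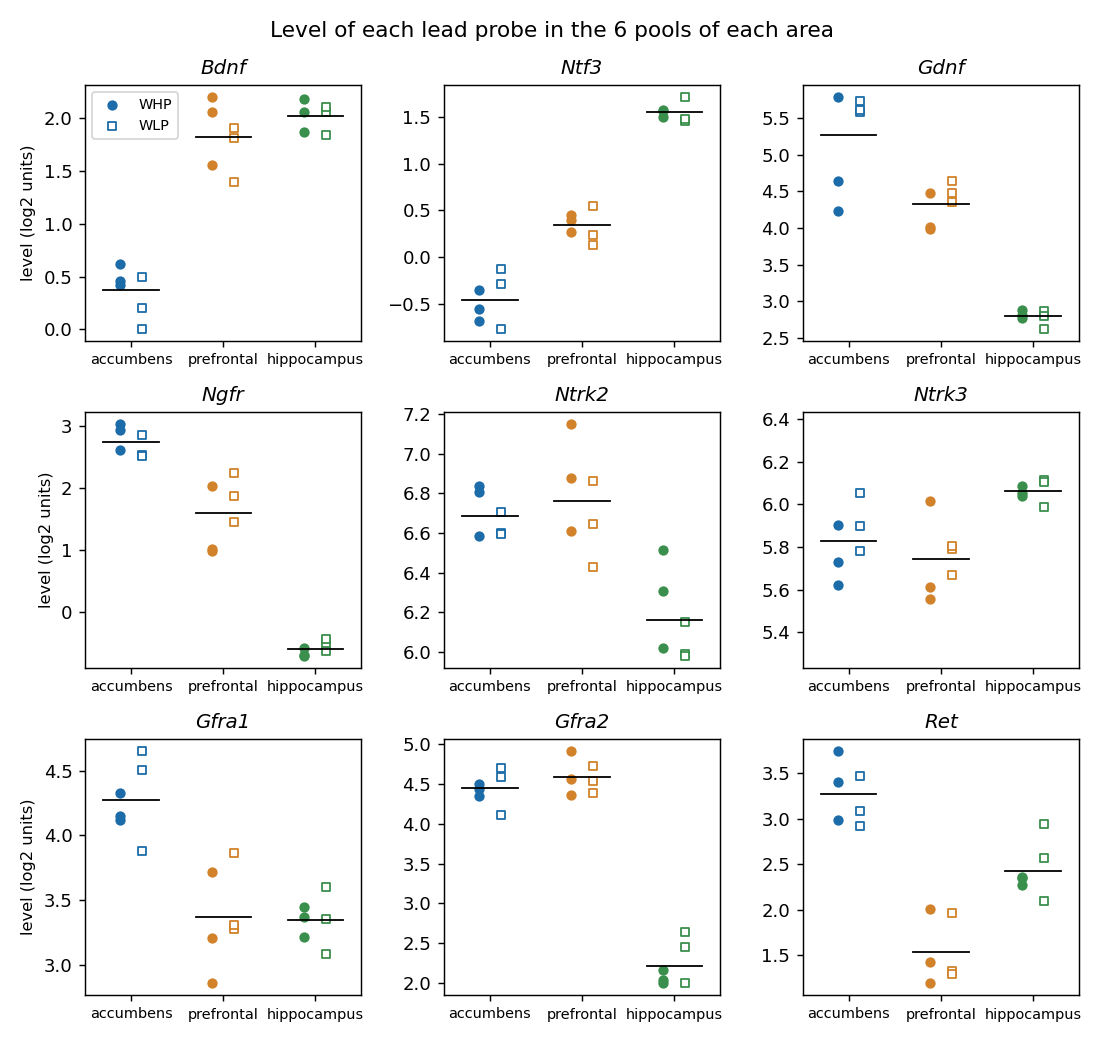
Level of each gene's lead probe (vertical axes, log2 units above the median of all probes and channels, a separate scale for each gene) in the 3 WHP pools (filled circles) and 3 WLP pools (open squares) of each area, with a black bar at the area mean. Bdnf and Ntf3 are lowest and Ngfr, Ret and the G and C rich Gdnf probe highest in the nucleus accumbens, and Gfra2 is lowest in the hippocampus.

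The genes whose levels followed each lead probe most closely over the 18 pools, among 12503 named genes detected in all areas, are a description of the area pattern, and pools of 1 array share their hybridisation. Ngfr ran with Slc18a3, the vesicular acetylcholine transporter (r = 0.995), Slc10a4 (0.994) and Samd14 (0.992). Bdnf ran with Ptgs2 (0.981), Tmem108 (0.979) and Mal2 (0.979). Ntf3 ran with the cortical and hippocampal patterning gene Emx2 (0.985), the glutamate transporter gene Slc1a1 (0.984) and LRRTM1 (0.984). Gfra2 ran with Fnbp1l (0.989), Fxyd6 (0.985) and Tacr3 (0.9805). The G and C rich Gdnf probe ran with Zxdc (0.999), D430041D05Rikl (0.997) and Rtn4rl2 (0.994). The highest values were lower for Ret (0.957 with Ddx59), Gfra1 (0.953 with Chga), Ntrk2 (0.894 with Kcnj12) and Ntrk3 (0.845 with Olr1093).

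The study's own question was whether the strains differ within each area. No member probe differed between WHP and WLP in a single area: 0 of 15 tested were called in the nucleus accumbens, 0 of 14 in the prefrontal arrays and 0 of 16 in the hippocampus (limma, lowest adjusted p = 0.105, 0.322 and 0.900). At an unadjusted p under 0.05 the counts were 3, 2 and 0. Among all probes 0.252%, 0.0905% and 0.25% were called, so few calls could be looked for in a list of this length. The median log2 ratio of WHP over WLP was -0.03, -0.0039 and -0.04 over the member probes and 0.0009, 0.0015 and -0.0029 over all probes. In the mean of the 3 areas 1 of 14 member probes was called, against 2.85% of all probes. No member's strain ratio differed between areas in any of the 3 contrasts, in which 0% of all probes were called too. At an unadjusted p under 0.05 there were 0 member probes and 948 of all probes for nucleus accumbens minus prefrontal arrays, 1 and 2574 for nucleus accumbens minus hippocampus, and 0 and 1029 for prefrontal arrays minus hippocampus.

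**Figure D3:**
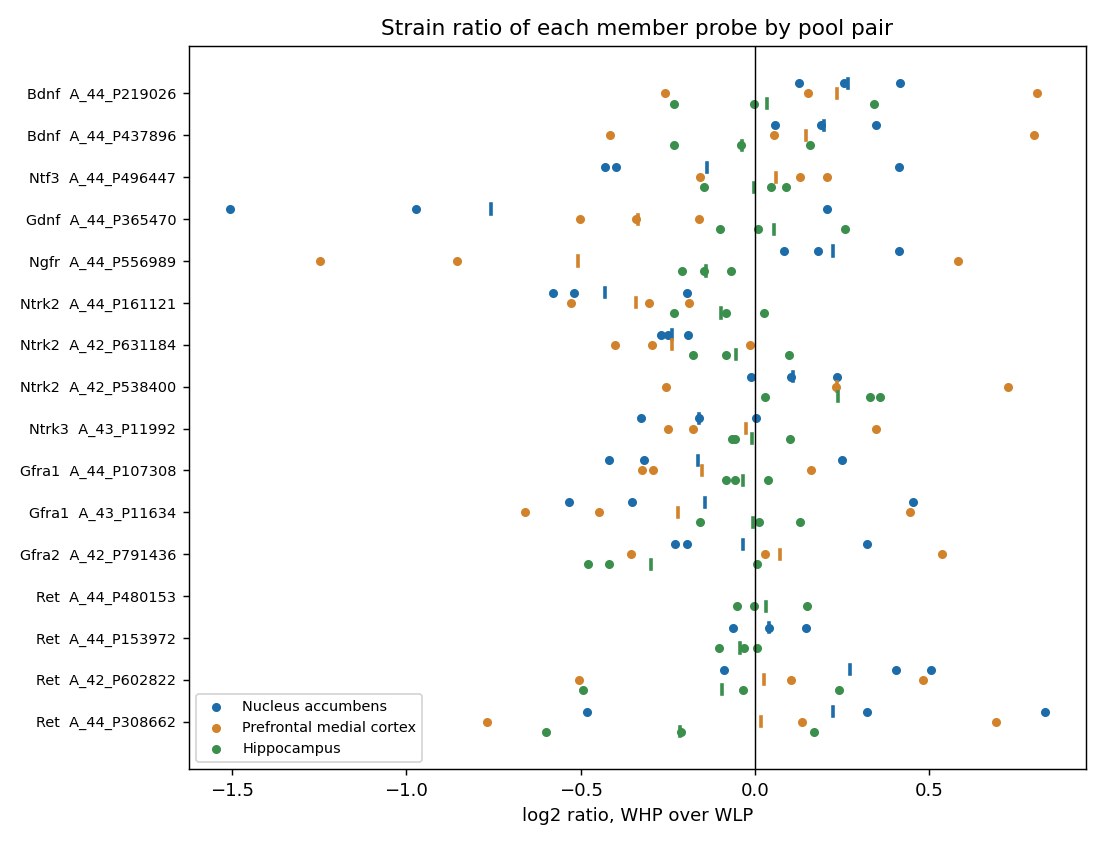
Log2 ratio of WHP over WLP (horizontal axis) for each detected member probe, with 1 point per pool pair and a short bar at the mean of the 3 pairs of an area, coloured by area. The points of most probes lie on both sides of 0, and the widest spreads belong to the G and C rich Gdnf probe in the nucleus accumbens and Ngfr in the prefrontal arrays.

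The probe called in the mean of areas was Ntrk2 A_44_P161121, which was lower in WHP. Its pair ratios were -0.20, -0.52 and -0.58 in the nucleus accumbens, -0.30, -0.19 and -0.53 in the prefrontal arrays and -0.08, 0.03 and -0.23 in the hippocampus. It was lower in WHP in 8 of 9 pairs. The mean over areas was -0.29 ± 0.05 (SE, 9 pairs, adjusted p = 0.0249), a 1.22-fold lower signal. The area means were -0.43 ± 0.09 (adjusted p = 0.105), -0.34 ± 0.09 (0.322) and -0.10 ± 0.09 (0.997). The nucleus accumbens minus hippocampus difference of these ratios was -0.33 ± 0.13 (adjusted p = 0.577).

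The call depended on the dye orientation and on single pairs. With WHP in Cy3 alone the mean was -0.48 (adjusted p = 0.0310) and with WHP in Cy5 alone -0.10 (adjusted p = 0.549). In nucleus accumbens pair 3 the arrays gave -1.26 and 0.10, and in hippocampus pair 2 they gave -0.51 and 0.56. These are the pairs whose dye swaps were uncorrelated over all probes, and without both pairs the mean was -0.29 with an adjusted p of 0.102. It was below 0 in each of 24 alternative settings, leaving out single pairs included, and called in 13 of them. Some of these settings were chosen after seeing the data. They were the mean of nucleus accumbens and prefrontal arrays (-0.39, adjusted p = 0.0278, called) and the fit without prefrontal arrays (-0.26, 0.136, not called).

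The other Ntrk2 probes did not move together. The variant 2 probe A_42_P631184 had ratios of -0.27, -0.25 and -0.19 in the nucleus accumbens, -0.40, -0.01 and -0.30 in the prefrontal arrays and 0.10, -0.08 and -0.18 in the hippocampus. Its mean over areas was -0.18 ± 0.04 and did not pass (adjusted p = 0.0802, below 0 in 8 of 9 pairs). The variant 1 probe A_42_P538400 had a mean of 0.19 ± 0.09 (95% interval -0.01 to 0.40, adjusted p = 0.299) and was above 0 in 7 of 9 pairs. The astrocyte list had median ratios of -0.15, -0.18 and 0.02, and none of its genes was called in a single area. Of its genes 12 of 14 lay below 0 in the nucleus accumbens, 14 of 14 in the prefrontal arrays and 6 of 14 in the hippocampus. Among all probes 49.63%, 49.16% and 51.92% lay below 0 in these areas. The only astrocyte gene called in the mean of areas was Acsbg1 (-0.17 ± 0.03, adjusted p = 0.0355). The striatal list lay below 0 in 14 of 14 genes in the mean of areas, against 49.94% of all probes. Its median was -0.28 with 1 gene called, Adcy5, against a median of -0.11 for the astrocyte list. By pair the striatal median was of both signs in each area. It was -0.23, -0.69 and 0.0035 in the nucleus accumbens, -0.73, 0.34 and 0.37 in the prefrontal arrays and 0.0046, -0.30 and -0.30 in the hippocampus. The part of astrocytes or of striatal cells in the Ntrk2 ratios was not tested.

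**Figure D4:**
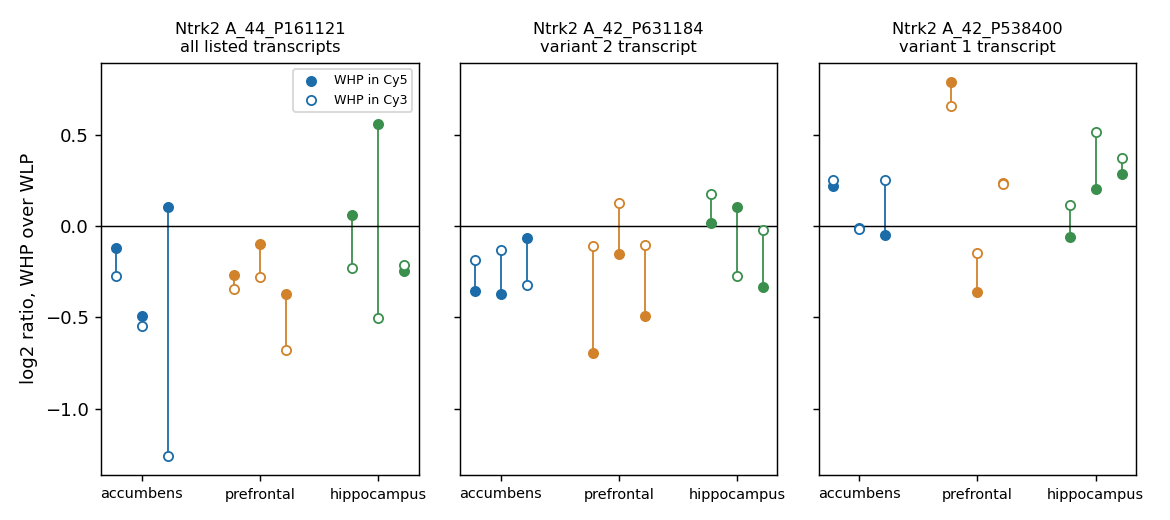
Log2 ratio of WHP over WLP (vertical axis) on each of the 18 arrays for the 3 Ntrk2 probes, with a line joining both arrays of 1 pair, filled where WHP was in Cy5 and open where it was in Cy3. For A_44_P161121 the arrays of nucleus accumbens pair 3 lie at -1.26 and 0.10 and those of hippocampus pair 2 at -0.51 and 0.56.

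Ligand ratios varied from pair to pair. Bdnf was higher in WHP in all 3 nucleus accumbens pairs on both probes, at 0.42, 0.13 and 0.26 on the lead probe and 0.19, 0.06 and 0.35 on the other. Neither passed (0.27 ± 0.18, adjusted p = 0.486, and 0.20 ± 0.19, adjusted p = 0.629). The prefrontal ratios of the lead probe were 0.81, -0.26 and 0.15 and the hippocampus ratios -0.0030, 0.34 and -0.23. The mean over areas was 0.18 ± 0.10, with a 95% interval of -0.06 to 0.41. Ntf3 ratios were 0.41, -0.43 and -0.40 in the nucleus accumbens, 0.21, 0.13 and -0.16 in the prefrontal arrays and -0.15, 0.05 and 0.09 in the hippocampus, so both signs occurred in each area.

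The G and C rich Gdnf probe, whose signal the other Gdnf probe did not share, had the lowest area mean of the member probes. It gave 0.21, -0.97 and -1.51 in the nucleus accumbens (-0.76 ± 0.26, SE, adjusted p = 0.230), -0.16, -0.34 and -0.50 in the prefrontal arrays (-0.33 ± 0.26, adjusted p = 0.800) and -0.10, 0.26 and 0.01 in the hippocampus. Nucleus accumbens pair 1 went against the other two, and the dye-swapped arrays of pair 3 differed widely, at -2.75 and -0.26. Without pair 1 the nucleus accumbens ratio was -1.24 (adjusted p = 0.0151) and the mean over areas -0.51 (adjusted p = 0.0119), both called, while the values with all pairs were not. Without the pairs whose dye swaps were uncorrelated, pair 3 among them, the nucleus accumbens ratio was -0.38 (adjusted p = 0.821).

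Ngfr ratios were 0.08, 0.18 and 0.41 in the nucleus accumbens, -1.25, 0.58 and -0.85 in the prefrontal arrays and -0.07, -0.21 and -0.15 in the hippocampus. None of the area means passed (0.22 ± 0.28, -0.51 ± 0.28 and -0.14 ± 0.28, adjusted p = 0.718, 0.689 and 0.9998). This SE is shared by the 3 areas, while the SDs of the pairs were 0.17, 0.96 and 0.07, the last at a level below the median of all probes. The wide prefrontal values had the sign of the cholinergic list in the same pairs, whose median ratios were -0.94, 0.71 and -0.21. Slc18a3 was at -2.10, 0.66 and -0.59 in those pairs. The part of those cells in the Ngfr ratios was not tested. Without prefrontal pair 2 the Ngfr mean over areas was -0.32 and was called (adjusted p = 0.0370).

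Ntrk3 and the GDNF receptors showed no strain difference beyond the spread between pairs. Ntrk3 area means were -0.16, -0.03 and -0.0080, each ± 0.11, and Gfra2 means were -0.03, 0.07 and -0.30, each ± 0.17. Gfra1 ratios on the lead probe were 0.45, -0.35 and -0.53 in the nucleus accumbens and -0.66, 0.44 and -0.45 in the prefrontal arrays, and its second probe had the same sign in each of these pairs. Ret ratios on the lead probe were -0.48, 0.32 and 0.83 in the nucleus accumbens and -0.77, 0.69 and 0.13 in the prefrontal arrays, against 0.17, -0.60 and -0.21 in the hippocampus. Its variant 2 probe had the same sign as the lead probe in each of these pairs. The 95% intervals of the means over areas were -0.42 to 0.17 for Gfra1, -0.31 to 0.14 for Gfra2, -0.39 to 0.40 for Ret and -0.21 to 0.08 for Ntrk3.

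The rest of the pathway showed no strain call. In the mean of areas 2.85% of all probes were called, so few calls could be looked for in lists of this length. None of 9 other ligands and receptors tested, 15 genes of proneurotrophin handling and co-receptors, 19 adaptors and effectors or 17 BDNF-responsive genes was called in the mean of areas, with medians of 0.05, -0.04, -0.02 and -0.13 against 0.0001 over all probes. The BDNF-responsive genes, among them immediate early genes, lay mostly below 0, in 12 of 17 in the nucleus accumbens, 14 of 18 in the prefrontal arrays and 15 of 17 in the hippocampus, with medians of -0.24, -0.11 and -0.11 and none called. The median by pair was of both signs in each area (0.0068, -0.40 and -0.17 in the nucleus accumbens, 0.31, -0.32 and -0.11 in the prefrontal arrays, -0.22, 0.04 and -0.24 in the hippocampus). Among all probes 49.63%, 49.16% and 51.92% lay below 0 in the 3 areas. Arc, an activity-regulated gene of synaptic plasticity, was at -0.0025, -1.76 and -0.85 in the nucleus accumbens pairs (adjusted p = 0.397).

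Between nucleus accumbens and prefrontal arrays 5 of 9 other ligands and receptors, 10 of 16 genes of proneurotrophin handling and 10 of 19 adaptors were called, against 49.7% of all probes. Neurturin (Nrtn), the preferred ligand of GFRα2, was highest in the nucleus accumbens, by 0.87 ± 0.09 over the prefrontal arrays and 1.22 ± 0.09 over the hippocampus. Of 18 BDNF-responsive genes tested between nucleus accumbens and prefrontal arrays, 12 were lower in the nucleus accumbens and 0 higher, against 7382 lower and 7748 higher of 30456 probes in all, with Arc at -2.65 ± 0.09 (adjusted p = 1.52e-06). The median over that list was -0.93 against 0.01 over all probes. The other comparisons did not all go this way. Against the hippocampus 11 of 17 were lower in the nucleus accumbens and 4 higher, where 73.5% of all probes were called. In the prefrontal arrays 14 of 18 were higher than in the hippocampus and 3 lower, where 70.3% of all probes were called. The list median there was 0.71, while the Bdnf probes were at -0.20 (not called) and -0.66.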

How the data were processed

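The members and gene lists were chosen with earlier results of these data known. The deposited scanner files hold, for each spot and dye, the mean intensity and the median intensity of the surrounding background, before any correction. Per the file headers they were written by Agilent Feature Extraction 10.10.1.1, with positions on rn4. The deposited value table holds 1 log2 ratio per spot. Set against the ratios computed here it correlated at 0.771 to 0.996 on all 18 arrays in the direction WHP over WLP, with array medians of -0.011 to 0.021. Its normalization is not given in the sources used here.

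With limma 3.58.1 in R 4.3.3, intensities were background-corrected (normexp, offset 50, which pulls ratios of dim spots towards 0) and normalized within arrays by loess with controls at weight 0. Non-uniform spots were left out, spots of a probe averaged, ratios turned to WHP over WLP and dye-swapped arrays averaged. Detection in an area required a signal well above background in 1 strain on at least 4 of its 6 arrays. Ratios of the 9 pairs were fitted with lmFit and eBayes, 1 coefficient per area, with Benjamini-Hochberg adjustment over all detected probes, two-sided, threshold 0.05. Each SE rests on 1 estimate of a probe's spread shared by the 3 areas, not on the pairs of 1 area alone. Levels were normalized further by Aquantile. The fit was also run on simulated data with independent normal noise, the same spread in all areas and no failed dye swaps. These data differ from that setting, and no result here rests on it. The number of arrays limits the precision. Genes were named by the files' accessions and symbols through a RefSeq gene table. Members were named by every probe they have, lead probes by brightness, other genes from fixed lists as extremes or calls, and like genes as the 3 highest correlations. The strain ratios of same-numbered pairs of different areas, as deviations from their area means, correlated at -0.381 to 0.166. With 3 pairs per area this cannot show whether the same rats gave several areas. Same-numbered nucleus accumbens and prefrontal pairs also shared a slide. The main fit took all 9 pairs as independent, which was not tested. Alternatives are given in the closing section.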

Additional observations from a re-analysis of the deposited data

Results flagged for a closer look

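The Ngfr ratio of WHP over WLP was above 0 in all 3 nucleus accumbens pairs and below 0 in all 3 hippocampus pairs, which is what drew attention to it. The difference of the area means was 0.37 ± 0.39 (SE), and the test of that difference itself did not pass (limma, adjusted p = 0.761). That SE comes from a spread estimate shared by all 3 areas. The prefrontal pairs, outside this comparison, had an SD of 0.96, against 0.17 in the nucleus accumbens and 0.07 in the hippocampus. The failed test therefore does not show that the pairs of the compared areas disagree. In the hippocampus Ngfr lay below the median of all probes (mean level -0.59), and the offset pulls ratios of dim spots towards 0. Its SD there is thus not directly comparable with the others. The hippocampus ratio was -0.14 in the main fit, -0.31 with the scanner's processed signals and -0.22 with the deposited values. Groups of 3 pairs were too small to look for single outlying pairs.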

How the results depend on the processing

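In the mean of areas, 1 probe was called with all pairs. The count was 0 with the scanner's processed signals, median centring, WHP in Cy5 only, and trend and robust variances. It was 0 too without the pairs with uncorrelated dye swaps and, chosen after seeing the data, without the prefrontal arrays. With 1 probe per gene it was 0 because only the brightest Ntrk2 probe was kept, so A_44_P161121 was not tested. With all 18 arrays entered singly the count was 2. Leaving out 1 pair gave 0 to 3 there and 0 to 2 in the nucleus accumbens, where the count was 0. The Ntrk2 probe A_44_P161121 missed the threshold without nucleus accumbens replicate 2 or 3, prefrontal replicate 3, or hippocampus replicate 1 or 3 (adjusted p = 0.0509 to 0.0802). Between nucleus accumbens and hippocampus levels, 15 probes were called, against 73.5% of all probes, and 8 with median scaling in place of Aquantile. Median scaling also cut the calls among all probes from 49.7% to 6.18% between nucleus accumbens and prefrontal arrays, while 9 member probes were called under both. The scanner's processed signals moved the median of all probes to -0.233 (nucleus accumbens minus hippocampus) and -0.141 (prefrontal minus hippocampus), and turned the dim Ret probe A_44_P480153 from 0.16 to -0.19 in the former. With the replicate block, the counts were 1 in the mean of areas and 9, 15 and 11 for levels, so no count changed. With slide as the block in the first scan session, also chosen after seeing the data, the nucleus accumbens minus prefrontal count was 9. The cause of these changes was not tested. For most alternatives the share of all probes called is not given here. A change in a count therefore need not be particular to the members. Dim probes, such as those of Ret with few channels above background, limit what can be seen.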
